A study of Mus musculus with 12 samples.

Results

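The genes examined were 10 genes of branched-chain amino acid (BCAA) catabolism, chosen by name: Bcat1, Bcat2, Bckdha, Bckdhb, Dbt, Bckdk, Ppm1k, Ivd, Acadsb and Mccc1. All 10 were found among the 61210 genes of the count table, and all 10 were among the 16737 genes with enough counts to be tested. Their levels were followed in total RNA-seq of brown adipose tissue (iBAT) from 20-week-old wild type C57BL/6N mice in 4 groups of 3 libraries. NCD at 22 °C and NCD at 4 °C were groups on the control chow diet, and HFD at 22 °C and HFD at 4 °C had received a high-fat diet for 12 weeks from 8 weeks of age. The 4 °C groups were kept in the cold for 24 h before sampling. The labels name iBAT for every sample. The study's text reads it as interscapular, while the deposited design text reads it as inguinal. The sources used here do not state the sex of the mice. The study does report weights of epididymal fat, a male depot, under these treatments. Whether each library came from a separate mouse or from pooled mice is not said either. The p-values therefore measure the spread between these libraries.

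BCAAs, which are leucine, isoleucine and valine, are broken down in mitochondria and feed the citric acid cycle. An aminotransferase first removes the amino group, and the branched-chain keto acid dehydrogenase (BCKDH) complex then commits the carbon skeleton to oxidation. The complex is switched off when the kinase Bckdk phosphorylates it and switched on when the phosphatase Ppm1k removes the phosphate. Brown fat is known to take up BCAAs for heat production in the cold, with Slc25a44 as their mitochondrial carrier.

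Library totals ranged from 15136861 to 46740702 counts. The labels put replicates 1 and 2 of every group in a batch of 8 libraries and replicate 3 in a batch of 4, whose totals were higher. The batch of replicate 3 holds 1 library a group and allows no test of its own. Levels are given as CPM, the counts of a gene scaled to the size of its library after TMM normalization. A gene was called where the quasi-likelihood test of edgeR gave a Benjamini-Hochberg adjusted p under 0.05 and the log2 fold change was over 0.5 in either direction. Among the 10 brown adipocyte markers, such as Ucp1, Cidea and Adipoq, none was at 0 in any group. Their summed level was 12900 to 15600 CPM in NCD at 22 °C, 29600 to 33200 in NCD at 4 °C, 13300 to 16800 in HFD at 22 °C and 21200 to 26300 in HFD at 4 °C. Ucp1 and Fabp4 made up most of that sum, and the markers did not all move one way. Cold on HFD raised 3 of the 10 and lowered Adipoq, an adipokine, from 584 to 363 CPM (log2 change -0.69, adjusted p = 0.0232). Fabp4, a fatty acid binding protein, fell with HFD at 4 °C from 8765 to 5362 CPM (log2 change -0.71, adjusted p = 0.0330), and no other of the 10 was called. The part of these falls in the lower levels of the BCAA genes in the same contrasts was not tested.

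Cold raised Dbt, a core subunit of the BCKDH complex, on both diets. On HFD it also lowered Bcat2, Bckdk, Ivd and Mccc1. On NCD the cold estimates for Bckdk, Ivd and Mccc1 were lower too (log2 changes -0.32, -0.31 and -0.26, not called), and that for Bcat2 was 0.13. The test of whether the cold change differed between the diets gave 0 calls among the 10 and 0% among all tested genes. After cold on NCD, 1 of the 10 genes was called, and 6.27% of all tested genes were, with 3.72% called higher. After cold on HFD, 5 of the 10 were called, 1 higher and 4 lower, against 9.58% of all tested genes, with 5.39% called higher and 4.19% lower. HFD at 22 °C gave 0 calls by edgeR among the 10, where 2.09% of all tested genes were called. At an unadjusted p under 0.05, Bcat1 and Acadsb passed in that comparison, as did at least 2990 of the 16737 tested genes. DESeq2 called Bcat1, and 4.95% of all tested genes. HFD at 4 °C gave 3 calls, Bcat1 higher and Bckdha and Ivd lower, against 4.75% of all tested genes, with 2.06% called higher and 2.69% lower. With no minimum fold, 5 of the 10 passed there, Bcat2 and Acadsb in addition, against 5.31% of all tested genes. The median log2 fold change of the 10 genes was -0.12 for cold on NCD and -0.42 for cold on HFD. For the diet contrasts it was 0.05 at 22 °C and -0.33 at 4 °C. Over all tested genes the medians were -0.01, -0.04, 0.03 and 0.02.

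**Figure D1:**
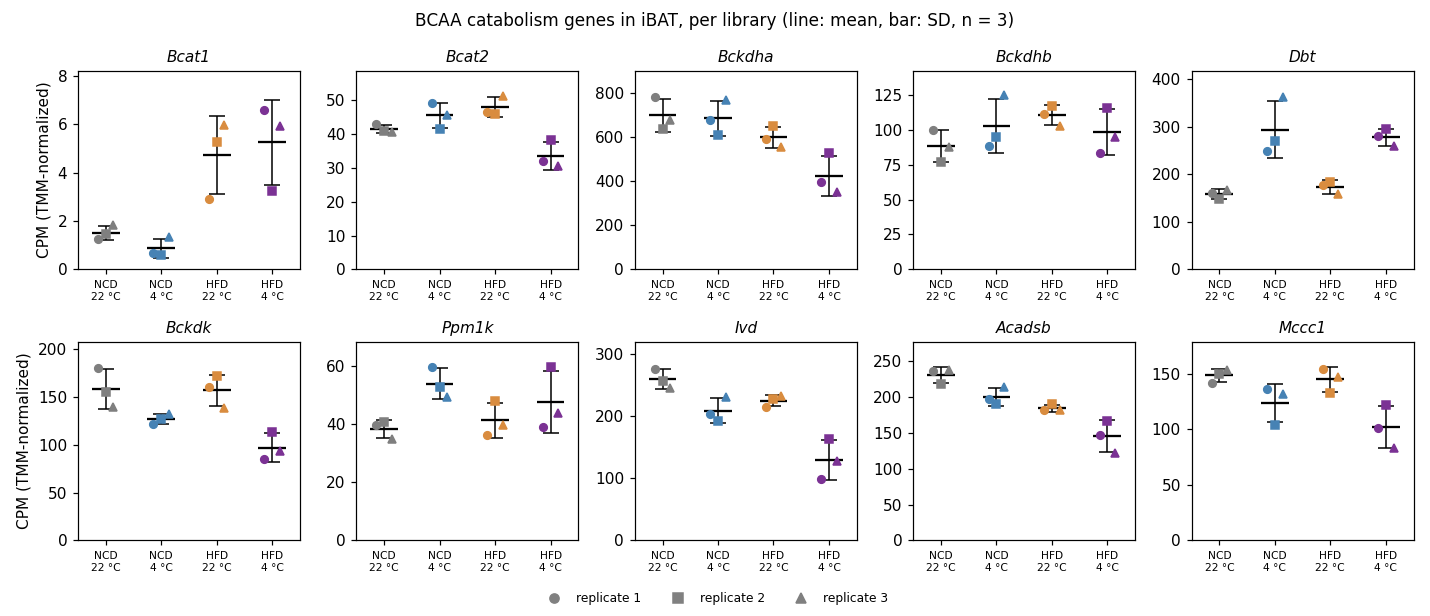
CPM of the 10 BCAA catabolism genes in each library, with one panel per gene, the 4 groups on the x axis and CPM from 0 on the y axis. Symbols mark replicates, lines the mean and bars the SD of 3 libraries. Dbt stood higher in every 4 °C library than in any 22 °C library, and Ivd lay lowest in HFD at 4 °C.

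Promoter windows are shown for the 4 genes that fell in the cold on HFD, and for Bcat1, which rose with HFD at 4 °C, so that they can be read side by side. The sequences are from RefSeq on GRCm38.p6 and cover the 250 bases before the start site, 5′ to 3′ on the gene's strand. Capitals mark the letters CCAAT, or ATTGG where they lie on the other strand. In the Ivd window 40 bases, and in the Bcat1 window 27 bases, also fall in exons of annotated transcripts.
Bcat2, chr7:45569903-45570152, plus strand: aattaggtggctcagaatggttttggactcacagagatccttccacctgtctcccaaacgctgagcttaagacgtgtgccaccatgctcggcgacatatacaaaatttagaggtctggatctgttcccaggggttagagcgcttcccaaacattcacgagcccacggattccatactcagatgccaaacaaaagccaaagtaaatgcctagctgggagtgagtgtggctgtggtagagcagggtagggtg
Bckdk, chr7:127903823-127904072, plus strand: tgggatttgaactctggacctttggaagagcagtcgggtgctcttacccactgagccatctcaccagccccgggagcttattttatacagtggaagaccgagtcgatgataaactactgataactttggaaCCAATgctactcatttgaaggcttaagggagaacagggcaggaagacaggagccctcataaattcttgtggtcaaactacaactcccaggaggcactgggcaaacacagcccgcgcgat
Ivd, chr2:118861744-118861993, plus strand: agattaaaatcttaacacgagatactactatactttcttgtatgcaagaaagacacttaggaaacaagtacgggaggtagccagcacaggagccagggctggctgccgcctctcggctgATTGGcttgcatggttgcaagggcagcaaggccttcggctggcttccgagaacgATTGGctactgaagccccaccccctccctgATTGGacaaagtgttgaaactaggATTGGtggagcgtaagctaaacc
Mccc1, chr3:36000679-36000928, minus strand: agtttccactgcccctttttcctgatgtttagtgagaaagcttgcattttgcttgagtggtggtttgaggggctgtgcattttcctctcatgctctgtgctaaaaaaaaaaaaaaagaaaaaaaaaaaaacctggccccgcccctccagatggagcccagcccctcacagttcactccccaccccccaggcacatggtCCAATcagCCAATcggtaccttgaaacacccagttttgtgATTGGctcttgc
Bcat1, chr6:145076158-145076407, minus strand: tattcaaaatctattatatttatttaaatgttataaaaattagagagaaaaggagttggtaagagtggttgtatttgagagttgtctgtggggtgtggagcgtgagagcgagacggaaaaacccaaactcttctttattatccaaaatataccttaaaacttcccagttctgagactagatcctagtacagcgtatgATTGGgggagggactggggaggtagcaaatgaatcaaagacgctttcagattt
RefSeq windows were matched for 9 of the 10 genes, the exception being Dbt, and 6 of the 9 held CCAAT in at least 1 window. Of all 32817 windows of this length, 33.8% did. That is a share of windows and not of genes, and Bcat1, Bcat2 and Bckdhb had 2 windows each, so the values are not like for like. The Ivd window held 4 such runs, found in at least that number in 0.835% of windows. The Mccc1 window held 3, found in at least that number in 2.79%. Of genes not called for cold on HFD, the Ppm1k window and 1 Bckdhb window held 2 each. The other Bckdhb window and those of Bckdha and Acadsb held 0. The shown Bcat2 window held 0. The Bckdk window and the shown Bcat1 window held 1 each, and the other Bcat1 window held 0. The other 7 motifs were also searched on both strands. TGACG, the CRE half-site contained in the full CRE, was in windows of Acadsb and Ppm1k and in 17.7% of all windows. GGGCGG was in windows of Acadsb, Bckdhb, Mccc1 and Ppm1k and in 32.7% of all. TGACGTCA (1.55% of all windows), TGATGNAA (3.45%), CACGTG (6.02%), AAGGTCA (4.08%) and the NRF1 motif (3.73%) were in windows of 0 of the 9 genes. These matches describe letters only.

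Levels can be compared between genes only per length. Per kb of merged exon in NCD at 22 °C, Bckdha had the highest level at 368 ± 39.2 CPM per kb (SD, n = 3). Bckdhb at 48.8 ± 6.32, Dbt at 47.3 ± 2.92, Ivd at 47.1 ± 2.87 and Bckdk at 42.9 ± 5.59 followed and did not differ beyond their spread. Acadsb was at 32.1 ± 1.53, Mccc1 at 13.6 ± 0.543, Bcat2 at 10.6 ± 0.326 and Ppm1k at 6.40 ± 0.522. Bcat1 was last at 0.162 ± 0.0323. With the length of the longest transcript in place of merged exons, Bckdha still had the highest value, and Ivd at 70.7 CPM per kb stood above Bckdhb at 59.6.

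Of the aminotransferases, the cytosolic enzyme Bcat1 was scarce and was higher on HFD, while the mitochondrial enzyme Bcat2 was lower in HFD at 4 °C than in the other groups. Bcat1 (QNCMUSG00047789) lies on the minus strand of chromosome 6, between positions 144993835 and 145076184 of GRCm38. Its level in replicates 1, 2 and 3 was 1.24, 1.45 and 1.84 CPM in NCD at 22 °C and 0.688, 0.589 and 1.33 CPM in NCD at 4 °C. It was 2.90, 5.28 and 5.99 CPM in HFD at 22 °C and 6.57, 3.26 and 5.92 CPM in HFD at 4 °C. Every HFD library was above every NCD library, and these levels rest on 10 to 254 counts per library. HFD at 4 °C raised Bcat1 by a log2 change of 2.54 (SE 0.398, 5.79-fold, adjusted p = 0.00624). The call held in all 12 fits that left out 1 library, with changes from 2.33 to 3.03, and within the batch of replicates 1 and 2 the change was 2.93 with an adjusted p of 0.0667. HFD at 22 °C gave a log2 fold change of 1.63 (SE 0.384) and an adjusted p of 0.0536 by edgeR, whereas DESeq2 gave 1.61 with an adjusted p of 0.00326. The change at 22 °C within that batch was 1.60 (adjusted p = 0.186). Cold gave -0.76 on NCD (95% interval -1.63 to 0.12) and 0.15 on HFD (-0.65 to 0.94).

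Bcat2 (QNCMUSG00049710) lies on the plus strand of chromosome 7, between positions 45570153 and 45589711. Its level was 42.9, 40.8 and 40.6 CPM in NCD at 22 °C and 49.0, 41.5 and 45.7 CPM in NCD at 4 °C. It was 46.5, 45.7 and 51.2 CPM in HFD at 22 °C and 31.9, 38.2 and 30.6 CPM in HFD at 4 °C. The 3 libraries of HFD at 4 °C lay below all 9 others. Cold on HFD lowered Bcat2, with a log2 change of -0.51 (SE 0.107, 1.43-fold lower, adjusted p = 0.0116). This stood close to the fold threshold. The call held in 5 of the 12 fits that left out 1 library, without replicate 2 of NCD at 22 °C, of NCD at 4 °C or of HFD at 4 °C, or replicate 1 or 2 of HFD at 22 °C, and the change ranged from -0.61 to -0.44. Without a filter on counts it was -0.47 (adjusted p = 0.0504), and within the batch of replicates 1 and 2 it was -0.40 (adjusted p = 0.157). HFD at 4 °C gave -0.44 with an adjusted p of 0.0408, under the fold threshold, and cold on NCD gave 0.13 (95% interval -0.10 to 0.37).

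Among the subunits of the BCKDH complex, Dbt and Bckdha moved in different comparisons, and Bckdhb passed in none. Dbt (QNCMUSG00036633), the dihydrolipoyl transacylase core, lies on the plus strand of chromosome 3, between positions 116513070 and 116549981. Its level was 161, 148 and 167 CPM in NCD at 22 °C and 248, 270 and 362 CPM in NCD at 4 °C. It was 178, 185 and 158 CPM in HFD at 22 °C and 280, 295 and 259 CPM in HFD at 4 °C. The 6 cold libraries were all above the 6 libraries at 22 °C. Cold raised Dbt by a log2 change of 0.89 on NCD (SE 0.139, 1.85-fold, adjusted p = 0.00447) and by 0.68 on HFD (SE 0.138, 1.60-fold, adjusted p = 0.0100). Both calls held in all 12 fits that left out 1 library. Within the batch of replicates 1 and 2 the changes were 0.75 on NCD (adjusted p = 0.0317) and 0.67 on HFD (adjusted p = 0.0391). The cold changes on the 2 diets differed by -0.21 (95% interval -0.64 to 0.22, adjusted p = 0.886). Diet itself gave 0.13 at 22 °C (-0.17 to 0.43) and -0.08 at 4 °C (-0.38 to 0.23). Dbt had the smallest p of the 10 genes across all 4 groups (adjusted p = 0.00163).

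Among 13195 coding genes, the patterns most like that of Dbt over the 12 libraries were those of Dnaja3, a mitochondrial chaperone, with a Pearson r of 0.983, Flad1, the FAD synthase, with 0.964, and Wwp2, a ubiquitin ligase, with 0.959. These are descriptions of log2 CPM in libraries that share the groups.

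Bckdha (QNCMUSG00048779), the E1 alpha subunit, lies on the minus strand of chromosome 7, between positions 25629946 and 25658981. Its level was 781, 637 and 676 CPM in NCD at 22 °C and 679, 609 and 767 CPM in NCD at 4 °C. It was 592, 649 and 556 CPM in HFD at 22 °C and 395, 526 and 352 CPM in HFD at 4 °C. Only the last group stood apart from all the others. HFD at 4 °C lowered Bckdha, with a log2 change of -0.69 (SE 0.158, 1.62-fold lower, adjusted p = 0.0325). The call was lost without replicate 1 or 3 of NCD at 4 °C, replicate 1 or 3 of HFD at 4 °C, or replicate 2 of HFD at 22 °C, and the change ranged from -0.88 to -0.57. It was -0.48 (adjusted p = 0.258) within the batch of replicates 1 and 2. Cold on HFD gave -0.50 (SE 0.158, adjusted p = 0.0646), and -0.52 with an adjusted p of 0.0238 in a fit that used replicate numbers as a block inside each diet. Cold on NCD gave -0.03 (95% interval -0.37 to 0.32). B3gnt8 on the opposite strand overlaps 61.7% of the merged exon length of Bckdha. The counts assigned to B3gnt8 were 8 to 50 per library, and how reads of the shared bases were split between the genes was not tested.

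Bckdhb (QNCMUSG00057453), the E1 beta subunit, lies on the plus strand of chromosome 9, between positions 83925145 and 84124240. Its level was 99.8, 77.0 and 87.2 CPM in NCD at 22 °C and 88.5, 94.9 and 124 CPM in NCD at 4 °C. It was 111, 117 and 103 CPM in HFD at 22 °C and 83.6, 116 and 94.9 CPM in HFD at 4 °C. The ranges overlapped between 22 °C and 4 °C on both diets. Cold gave 0.22 on NCD (95% interval -0.12 to 0.57) and -0.17 on HFD (-0.51 to 0.18). HFD gave 0.33 at 22 °C (-0.02 to 0.67) and -0.07 at 4 °C (-0.41 to 0.28).

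The kinase fell in the cold on HFD, and the phosphatase passed in no contrast. Bckdk (QNCMUSG00051702) lies on the plus strand of chromosome 7, between positions 127904082 and 127910221. Its level was 181, 155 and 140 CPM in NCD at 22 °C and 122, 127 and 132 CPM in NCD at 4 °C. It was 160, 171 and 139 CPM in HFD at 22 °C and 84.8, 113 and 93.1 CPM in HFD at 4 °C. On each diet the cold libraries lay below those at 22 °C. Cold on HFD lowered Bckdk, with a log2 change of -0.69 (SE 0.134, 1.61-fold lower, adjusted p = 0.00847), and the call held in all 12 fits that left out 1 library. Within the batch of replicates 1 and 2 the change was -0.74 with an adjusted p of 0.0589. Cold on NCD gave -0.32 (SE 0.133, adjusted p = 0.181), and the test of the difference between the diets gave -0.37 (95% interval -0.78 to 0.05, adjusted p = 0.801).

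Ppm1k (QNCMUSG00045743) lies on the minus strand of chromosome 6, between positions 57506502 and 57535468. Its level was 39.7, 40.9 and 35.0 CPM in NCD at 22 °C and 59.9, 52.9 and 49.3 CPM in NCD at 4 °C. It was 36.5, 48.2 and 39.7 CPM in HFD at 22 °C and 39.2, 59.8 and 44.0 CPM in HFD at 4 °C. The groups were apart on NCD and overlapped on HFD. Cold gave 0.49 on NCD (SE 0.162, adjusted p = 0.0957) and 0.20 on HFD (95% interval -0.15 to 0.56).

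Kinase and phosphatase were also set against each other within each library, a ratio chosen after their values were seen and therefore only described. The ratio of Bckdk to Ppm1k counts was 4.11 ± 0.390 in NCD at 22 °C and 2.37 ± 0.319 in NCD at 4 °C (SD, n = 3 each). On HFD it was 3.81 ± 0.494 at 22 °C and 2.06 ± 0.144 at 4 °C. All 6 cold libraries, at 1.89 to 2.67, were below the 6 libraries at 22 °C, at 3.50 to 4.55. The ratio of Dbt to Bckdha counts was 0.228 ± 0.0204 in NCD at 22 °C, 0.427 ± 0.0546 in NCD at 4 °C, 0.289 ± 0.00981 in HFD at 22 °C and 0.669 ± 0.0950 in HFD at 4 °C. These ratios do not depend on library scaling. For Bcat1 to Bcat2 the ratio was 0.0367 ± 0.00816, 0.0191 ± 0.00861, 0.0982 ± 0.0310 and 0.162 ± 0.0665 in the same order.

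**Figure D2:**
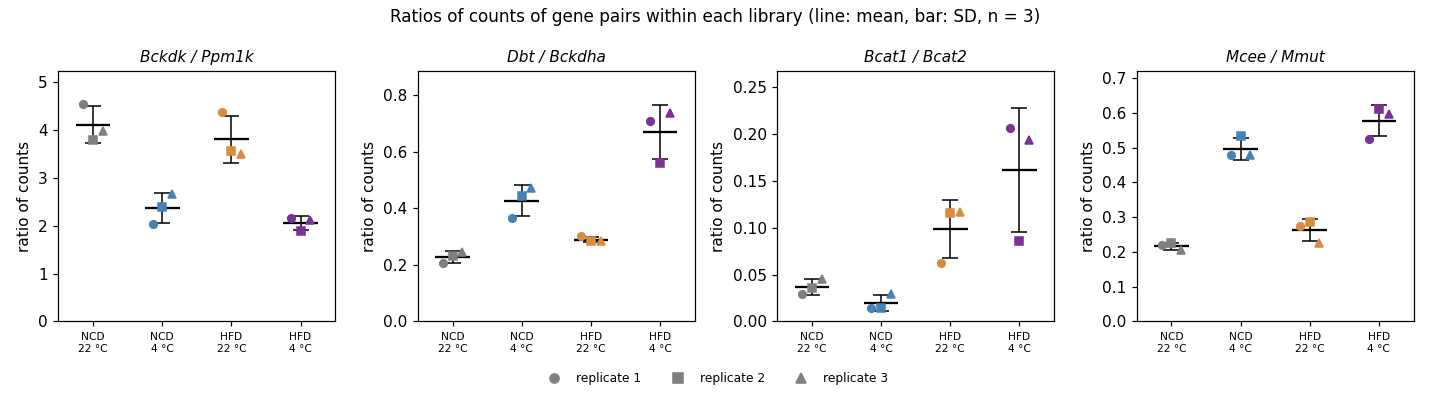
Ratios of counts of 4 gene pairs in each library, with the groups on the x axis and the ratio from 0 on the y axis, lines for the mean and bars for the SD of 3 libraries. Bckdk to Ppm1k lay at 1.89 to 2.67 in the 4 °C libraries and at 3.50 to 4.55 at 22 °C, and Mcee to Mmut was higher in every cold library than at 22 °C.

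Of the enzymes after the BCKDH step, Ivd and Mccc1 of the leucine branch fell in the cold on HFD. Ivd (QNCMUSG00032492), isovaleryl-CoA dehydrogenase, lies on the plus strand of chromosome 2, between positions 118861954 and 118882909. Its level was 276, 256 and 245 CPM in NCD at 22 °C and 203, 192 and 231 CPM in NCD at 4 °C. It was 215, 228 and 232 CPM in HFD at 22 °C and 98.4, 163 and 127 CPM in HFD at 4 °C. The libraries of HFD at 4 °C lay below all 9 others. Cold on HFD lowered Ivd, with a log2 change of -0.80 (SE 0.157, 1.74-fold lower, adjusted p = 0.00906), and the call held in all 12 fits that left out 1 library. In the batch of replicates 1 and 2 alone it was -0.76 (adjusted p = 0.103). HFD at 4 °C lowered it as well, with -0.69 (SE 0.156, 1.61-fold lower, adjusted p = 0.0315). This call held in 6 of the 12 fits and was lost without replicate 1 or 3 of NCD at 4 °C, replicate 1 or 3 of HFD at 4 °C, replicate 2 of NCD at 22 °C or replicate 2 of HFD at 22 °C. The change then ranged from -0.89 to -0.50 over the 12 fits, and was -0.60 (adjusted p = 0.246) within the batch of replicates 1 and 2. Cold on NCD gave -0.31 (95% interval -0.65 to 0.03), and the difference between the cold changes was -0.49 (adjusted p = 0.766).

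Mccc1 (QNCMUSG00034874), a subunit of methylcrotonyl-CoA carboxylase, lies on the minus strand of chromosome 3, between positions 35959312 and 36000678. Its level was 142, 150 and 154 CPM in NCD at 22 °C and 136, 104 and 132 CPM in NCD at 4 °C. It was 155, 133 and 148 CPM in HFD at 22 °C and 101, 122 and 83.4 CPM in HFD at 4 °C. Cold and 22 °C libraries were apart on each diet. Cold on HFD lowered Mccc1, with a log2 change of -0.51 (SE 0.144, 1.42-fold lower, adjusted p = 0.0435). This call was the least stable of the 5 when 1 library was left out. It held in 2 of the 12 fits, without replicate 2 of NCD at 4 °C or of HFD at 4 °C, with changes from -0.65 to -0.37 over all 12. Without a filter on counts it was -0.47 (adjusted p = 0.0786), and within the batch of replicates 1 and 2 it was -0.37 (adjusted p = 0.257). Cold on NCD gave -0.26 (95% interval -0.58 to 0.05).

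Acadsb (QNCMUSG00051796), the short/branched-chain acyl-CoA dehydrogenase of the isoleucine branch, lies on the plus strand of chromosome 7, between positions 131410601 and 131448944. Its level was 236, 218 and 237 CPM in NCD at 22 °C and 196, 190 and 214 CPM in NCD at 4 °C. It was 181, 189 and 181 CPM in HFD at 22 °C and 147, 166 and 122 CPM in HFD at 4 °C. The groups did not overlap in any of the 4 contrasts. HFD at 4 °C gave -0.46 (SE 0.113, adjusted p = 0.0414), which was under the fold threshold. HFD at 22 °C gave -0.32 (adjusted p = 0.164), cold on HFD -0.34 (adjusted p = 0.0759) and cold on NCD -0.20 (adjusted p = 0.337).

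**Figure D3:**
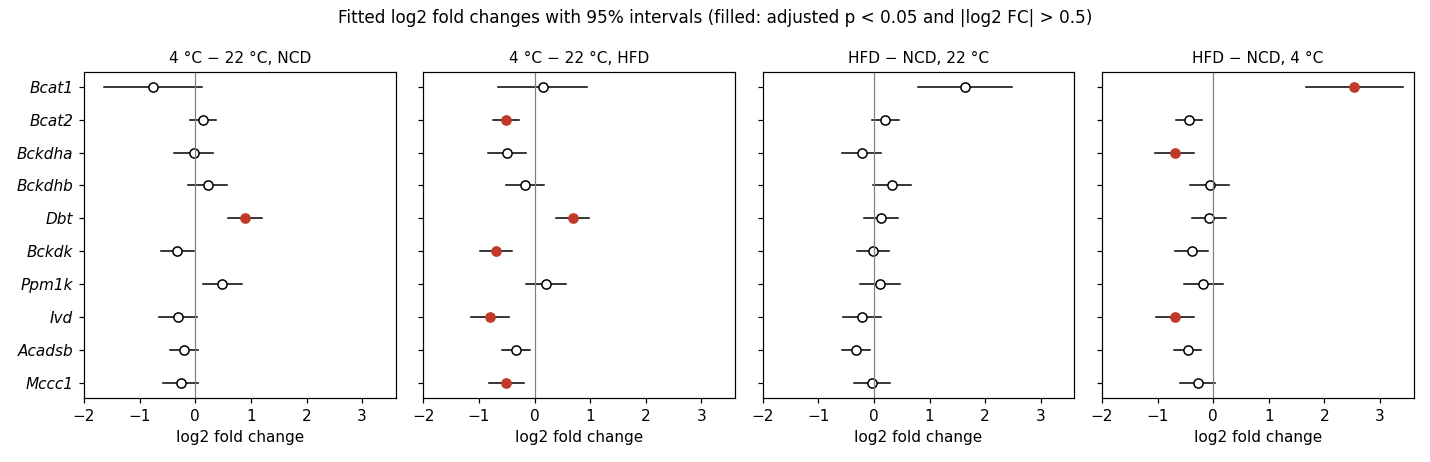
Fitted log2 fold changes of the 10 genes in the 4 contrasts, one panel per contrast, with log2 fold change on the x axis and 95% intervals as lines. Filled points passed an adjusted p of 0.05 and a log2 fold change of 0.5, which gave 1 gene for cold on NCD and 5 for cold on HFD, and 0 and 3 genes for the diet at 22 °C and at 4 °C.

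Across the contrasts, the libraries did not overlap for 6 of the 10 genes after cold on NCD, where 27.8% of all tested genes did not overlap. The count was 7 after cold on HFD (30.3%). Between the diets it was 5 at 22 °C (25.9%) and 6 at 4 °C (25.2%). In the test across all 4 groups, 0 of the 10 reached an adjusted p under 0.001 by edgeR, against 2.55% of all tested genes. By DESeq2 7 passed it, and 9 of the 10 had an unadjusted edgeR p under 0.05. The share of all tested genes was not computed for either count, so neither can be read against a background. At an adjusted p of 0.05, 8 of the 10 passed, against 24.3% of all tested genes, the exceptions being Bckdhb and Ppm1k. The test of whether the cold change differed between the diets gave 0 calls among the 10 and 0% among all tested genes. At an unadjusted p under 0.05, Bcat2 and Ivd passed, against 6.52% of all tested genes. The estimate for Bcat2 was -0.65 (SE 0.151, adjusted p = 0.475), and DESeq2 called it with an adjusted p of 0.0456. In 9 of the 10 genes the estimated cold change was more negative on HFD, Bcat1 being the exception, and the median difference was -0.33. For Dbt and Ppm1k this was a smaller rise. Of the 16737 tested genes, 9077 also had a more negative cold change on HFD, with a median difference of -0.03.

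Replicate 2 of HFD at 4 °C held the highest level of its group in 9 of the 10 genes and the lowest in Bcat1. The summed macrophage markers were lowest in replicate 2, at 124 CPM, and stood at 178 and 274 CPM in replicates 1 and 3. Of the 10 brown adipocyte markers, replicate 2 was highest in 6, Adipoq and Fabp4 among them, and lowest in 2, Cidea and Elovl3. Over the groups, the 8 macrophage markers summed to 129 to 158 CPM in NCD at 22 °C, 97.0 to 130 in NCD at 4 °C, 128 to 182 in HFD at 22 °C and 124 to 274 in HFD at 4 °C. None was at 0 in a whole group, and 2 of the 8, Itgam and Mrc1, were called higher with HFD at 4 °C. Cold on HFD raised Cd68 among the 8, from a mean of 4.17 to 13.6 CPM (log2 change 1.72, adjusted p = 0.0319), with libraries that overlapped. Without replicate 2 of HFD at 4 °C, 6 of the 10 genes were called in the cold contrast on HFD and 5 in the diet contrast at 4 °C, against 9.25% and 5.72% of all genes tested in that fit. The 5 endothelial markers summed to 473 to 595 CPM in NCD at 22 °C, 683 to 770 in NCD at 4 °C, 664 to 916 in HFD at 22 °C and 886 to 1020 in HFD at 4 °C, and Pecam1 was called higher for cold on NCD and HFD at 22 °C. The 6 fibroblast markers summed to 446 to 639, 269 to 336, 257 to 398 and 250 to 347 CPM in the same order, and Col1a1, Lum and Dpt were called lower for cold on NCD. None of these markers was at 0 in a whole group. The part of these markers in the levels of the BCAA genes was not tested, and in bulk tissue fewer cells of a type and less RNA per cell cannot be told apart.

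The 10 skeletal muscle markers summed to 2680 to 16400 CPM in NCD at 22 °C, 1150 to 8850 in NCD at 4 °C, 1870 to 17300 in HFD at 22 °C and 559 to 5200 in HFD at 4 °C. Replicate 2 was highest in both NCD groups and replicate 3 in both HFD groups. None of the 10 was at 0 in a whole group, 0 of the 10 was called by edgeR in any contrast, and all 10 had lower estimates in the cold on both diets. With a muscle score as a covariate, Dbt rose in the cold by 0.81 on NCD and 0.58 on HFD, and the change on HFD was -0.75 for Bckdk, -0.81 for Ivd, -0.62 for Mccc1 and -0.55 for Bcat2. All of these stayed called.

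The levels of several of the genes followed each other from library to library, as a description over 12 libraries that share the 4 groups. The Pearson r of log2 CPM was 0.942 for Bckdha and Acadsb, 0.920 for Bckdk and Ivd and 0.888 for Bckdha and Ivd. With the group means removed, r was 0.889 for Bckdha and Acadsb and 0.710 for Bckdk and Ivd.

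The rest of the pathway was described with 21 partner genes, all of them tested. They comprise Dld, the shared E3 subunit, the later enzymes of the leucine, valine and isoleucine branches, the propionyl-CoA route, the carriers and the regulator Klf15. After cold on NCD 2 of the 21 were called, both higher, against 6.27% of all tested genes. After cold on HFD 8 were called, 3 higher and 5 lower, against 9.58%. HFD at 22 °C gave 1 call, against 2.09%, and HFD at 4 °C gave 4, 1 higher and 3 lower, against 4.75%. The median log2 fold change of the 21 was -0.03 for cold on NCD and -0.33 for cold on HFD, and that of all tested genes was -0.01 and -0.04. Within the batch of replicates 1 and 2, both calls for cold on NCD held, 1 of the 8 for cold on HFD held (Slc3a2), and 0 held for HFD at 22 °C and at 4 °C. Of all genes tested in that batch, 2.12% were called for cold on NCD and 2.51% for cold on HFD. For HFD the shares there were 0.253% at 22 °C and 0.32% at 4 °C.

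In the leucine branch, Mccc2, the partner subunit of Mccc1, lay at 114 to 130 CPM in HFD at 22 °C and at 60.0, 87.1 and 61.3 CPM in HFD at 4 °C. Cold on HFD lowered it, with a log2 change of -0.83 (SE 0.152, adjusted p = 0.00674), and so did HFD at 4 °C, with -0.77 (SE 0.152, adjusted p = 0.0180). The first call held in all 12 fits that left out 1 library. The second was lost without replicate 1 or 3 of either 4 °C group. Cold on NCD gave -0.03 (95% interval -0.36 to 0.30). Auh, the methylglutaconyl-CoA hydratase, fell from 121 to 146 CPM in HFD at 22 °C to 63.7 to 95.2 CPM in HFD at 4 °C, a log2 fold change of -0.82 (adjusted p = 0.0125). Without replicate 1 or 3 of HFD at 4 °C the Auh call was lost, with changes from -1.02 to -0.70 over the 12 fits.

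Of the valine and isoleucine enzymes, Aldh6a1, methylmalonate-semialdehyde dehydrogenase, lay at 551, 573 and 571 CPM in HFD at 22 °C and 322, 423 and 270 CPM in HFD at 4 °C. Cold on HFD lowered it, with -0.74 (SE 0.160, adjusted p = 0.0139), and HFD at 4 °C with -0.71 (SE 0.160, adjusted p = 0.0314). The first call was lost only without replicate 1 of HFD at 4 °C, and the second in 5 of the 12 fits that left out 1 library, those without replicate 1 or 3 of either 4 °C group or replicate 2 of HFD at 22 °C. Echs1, the enoyl-CoA hydratase, and Acat1, the thiolase of the isoleucine branch, are enzymes that other pathways share. Cold on HFD gave -0.60 for Echs1 (adjusted p = 0.0478) and -0.60 for Acat1 (adjusted p = 0.0469). Either call held in 1 of the 12 fits, the one without replicate 2 of HFD at 4 °C, over which the changes ranged from -0.80 to -0.48 for Echs1 and from -0.83 to -0.47 for Acat1.

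In the propionyl-CoA route, Mcee, methylmalonyl-CoA epimerase, rose in the cold on both diets. Its level was 59.0, 52.7 and 50.2 CPM in NCD at 22 °C and 116, 121 and 139 CPM in NCD at 4 °C, and 69.4, 74.1 and 54.3 CPM in HFD at 22 °C and 101, 147 and 103 CPM in HFD at 4 °C. The log2 fold change was 1.22 on NCD (SE 0.164, 2.32-fold, adjusted p = 0.00195) and 0.83 on HFD (SE 0.163, 1.77-fold, adjusted p = 0.00913), and both calls held in all 12 fits that left out 1 library. The changes within the batch of replicates 1 and 2 were 1.08 (adjusted p = 0.0346) and 0.79 (adjusted p = 0.0622). Its ratio to the counts of Mmut, the mutase of the next step, was 0.216 ± 0.0102, 0.497 ± 0.0317, 0.262 ± 0.0317 and 0.578 ± 0.0454 in NCD at 22 °C, NCD at 4 °C, HFD at 22 °C and HFD at 4 °C (SD, n = 3).

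**Figure D4:**
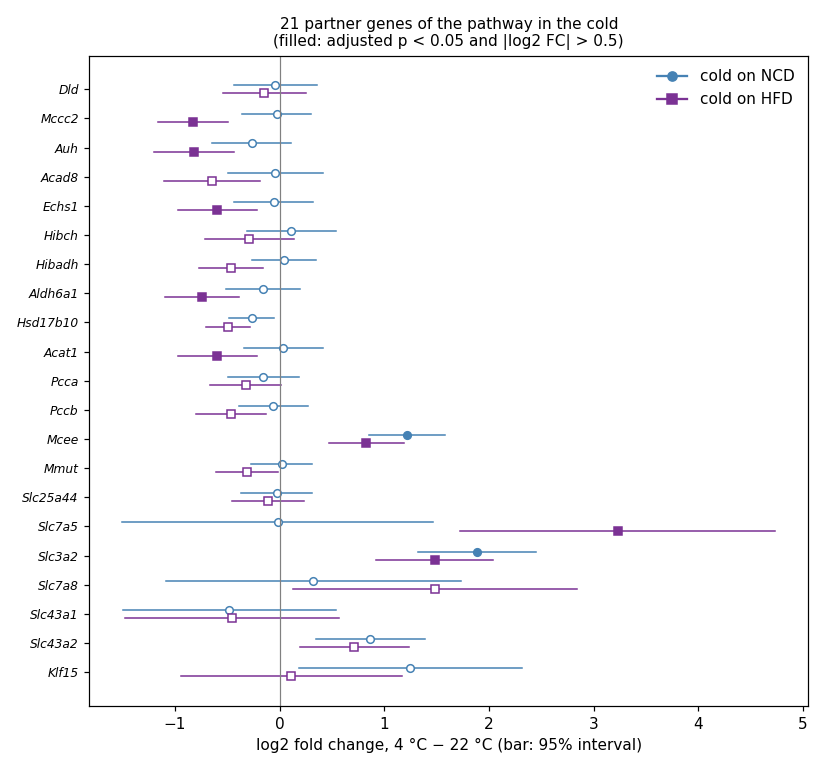
Log2 fold changes in the cold of 21 partner genes of the pathway on NCD (circles) and HFD (squares), with 95% intervals as lines and log2 fold change on the x axis. Filled symbols passed the thresholds, 2 genes on NCD and 8 on HFD, and Mcee and Slc3a2 were filled on both.

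Of the carriers, Slc25a44 was lower on HFD at both temperatures. Its level was 203, 238 and 224 CPM in NCD at 22 °C and 210, 190 and 251 CPM in NCD at 4 °C, and 146, 154 and 101 CPM in HFD at 22 °C and 124, 127 and 119 CPM in HFD at 4 °C. Every HFD library lay below every NCD library. HFD lowered it, with a log2 change of -0.73 at 22 °C (SE 0.156, adjusted p = 0.0385) and -0.82 at 4 °C (SE 0.156, adjusted p = 0.0158). The call at 22 °C held in 5 of the 12 fits that left out 1 library. It was lost without any 1 library of NCD at 22 °C, without replicate 2 or 3 of HFD at 22 °C and without replicate 2 or 3 of HFD at 4 °C, with changes from -0.85 to -0.57. The call at 4 °C was lost without replicate 3 of NCD at 4 °C or replicate 1 or 3 of HFD at 4 °C. Cold gave -0.03 on NCD (95% interval -0.37 to 0.31) and -0.11 on HFD (-0.45 to 0.23).

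Slc3a2 and Slc7a5 encode the heavy and light chains of the LAT1 carrier of the plasma membrane. Slc3a2 lay at 36.5 to 47.2 CPM in NCD at 22 °C and at 170, 175 and 99.1 CPM in NCD at 4 °C, and at 41.2 to 48.3 CPM in HFD at 22 °C and at 174, 116 and 90.8 CPM in HFD at 4 °C. Cold raised it by 1.88 on NCD (SE 0.258, adjusted p = 0.00207) and by 1.48 on HFD (SE 0.255, adjusted p = 0.00498). Slc7a5 was at 0.322 to 1.06 CPM in the other groups and at 11.6, 1.89 and 2.98 CPM in HFD at 4 °C. These levels rest on only 5 to 42 counts per library in the other groups, and on 258, 43 and 128 in HFD at 4 °C. Cold on HFD raised it by a log2 change of 3.23 (SE 0.688, adjusted p = 0.0128) and HFD at 4 °C by 2.99 (SE 0.678, adjusted p = 0.0314). Replicate 1 of HFD at 4 °C held most of this level. Without it, the change for cold on HFD was 2.11 (adjusted p = 0.0370) and that for HFD at 4 °C was 1.86 (adjusted p = 0.103). The call for HFD at 4 °C was also lost without replicate 1 (2.83) or replicate 3 (2.78) of NCD at 4 °C. It was lost as well in a fit with replicate numbers as a block over all libraries (2.85, adjusted p = 0.0573). Cold on NCD gave -0.02 (95% interval -1.51 to 1.46), and the difference between the diets was 3.25 (adjusted p = 0.591).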

How the data were processed

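Total RNA-seq of iBAT covered 12 libraries in 4 groups, taken from the sample labels. Per the labels and the study's methods, the authors used cutadapt for quality filtering and salmon for quantification on transcripts of GENCODE M22 and RNAcentral 5 (GRCm38), and they deposited estimated counts, which stand in the file as unnormalized whole numbers for each gene. Tool versions and the strand setting are not given in the sources used here, so reads of overlapping genes on opposite strands may not be separated. Replicates were not pooled. No 2 replicates agreed within counting noise. A label of room temperature was read as 22 °C from the study's methods.

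Genes were kept with filterByExpr (minimum count 10), normalized with TMM and fitted as 4 group means over all 12 libraries with edgeR 4.0.16 (quasi-likelihood test, R 4.3.3). p-values were Benjamini-Hochberg adjusted over all 16737 tested genes. The test across the 4 groups used an adjusted p under 0.001, the contrasts an adjusted p under 0.05 with a log2 fold change over 0.5, and the diet by temperature interaction an adjusted p under 0.05. CPM correlations used a prior count of 2. Standard errors come from the fitted change and its F value.

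The genes, the lists and the tests were chosen with earlier results of these data known. Named were all 10 genes, the partner genes called in at least 1 test, and the 3 coding genes most correlated with the member of smallest 4-group p. Another partner gene was dropped from the list and is not reported here. Outside that rule, Dld and Mmut are named for their roles, and Acad8, Hibadh, Hsd17b10, Pccb, Slc43a2 and Klf15 in the closing section after their values were seen.

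Alternatives were DESeq2 1.42.0, its size factors, other count filters, batch or replicate number as terms, the batch of replicates 1 and 2 alone, the 6 libraries compared, a skeletal muscle score, no minimum fold and each library left out. Same-numbered libraries at 22 °C and 4 °C deviated together (r of 0.219, 0.456 and 0.281 on NCD and 0.155, 0.217 and 0.386 on HFD). Unlike numbers gave r of -0.289 to 0.044 on NCD and -0.268 to 0.134 on HFD. The replicate number was therefore also used as a block within diet. The labels do not say where this likeness comes from or that libraries are paired. The pairs at 0.456 and 0.386 held the most skeletal muscle marker RNA of their groups, and replicate 3 is a batch of its own. The part of either was not tested. Across the diets r of same-numbered libraries was -0.211 to 0.365, and the numbers were not taken to pair libraries. Coordinates are from GENCODE M21 on GRCm38, whose gene versions are the ones in the authors' table for these genes. The fit was also run on simulated counts, which held no batch or muscle differences and no changes near the fold threshold. That run therefore does not bear on calls close to the threshold.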

Additional observations from a re-analysis of the deposited data

How the results depend on the processing

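Dbt stayed called for cold on both diets under every alternative tried, Bckdk for cold on HFD under all but the batch of replicates 1 and 2 alone, and Ivd for cold on HFD under all but that batch and the 6 libraries compared. The number of the 10 genes called for cold on HFD was 5 and became 3 with no filter on counts, 3 with a mean of at least 10 counts, 1 in the batch of replicates 1 and 2 and 2 with the 6 libraries compared. It was 4 with the replicate block over all libraries, which lost Mccc1 (adjusted p = 0.0583), and 6 with the muscle score, which added Bckdha (-0.65, adjusted p = 0.0154). That block called 10.3% of all tested genes and that score 9.95%. Over all genes tested, the share called for cold on HFD was 4.31% with no filter, 9.86% with a mean of at least 10 counts, 2.51% in the batch of replicates 1 and 2 and 5.28% with the 6 libraries, and for HFD at 4 °C it was 0.32% in that batch and 0.949% with the 6 libraries. For HFD at 22 °C the number of the 10 genes called was 0 and became 1, Bcat1, with DESeq2, no filter, batch as a term, the replicate block over all libraries or the muscle score. These settings called 4.95%, 1.37%, 2.34%, 2.76% and 3.09% of all tested genes, in that order. For HFD at 4 °C it was 3 and became 0 in the batch of replicates 1 and 2, 1 with the 6 libraries and 5 with no minimum fold. The interaction gave 1 (Bcat2) with DESeq2, where 0.37% of all tested genes were called. The 4-group test gave 7 with DESeq2 and 2 (Bcat1 and Dbt) with no filter, and the shares of all genes were not computed for it.

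The replicate block within diet added Bckdha for cold on HFD and raised the partner genes called for cold on NCD from 2 to 4, adding Slc43a2 (0.85) and Klf15 (1.19), as the block over all libraries also did with 4. It further added Acad8 (-0.69) and Slc43a2 (0.65) for cold on HFD and changed no other call. Of all tested genes, the block within diet called 8.86% for cold on NCD and 12.9% for cold on HFD. The block over all libraries called 7.41% for cold on NCD. Partner counts for cold on HFD (8) became 1 in the batch of replicates 1 and 2 and 3 with the 6 libraries, and 12 with the muscle score, which added Acad8, Hibadh, Hsd17b10 and Pccb. For HFD at 22 °C (1) they became 2 with DESeq2, 2 with the replicate block over all libraries and 0 in the batch of replicates 1 and 2. Of all tested genes, 4.95%, 2.76% and 0.253% were called there, in that order. For HFD at 4 °C (4) they became 8 with DESeq2, which called 7.89% of all tested genes, 0 in that batch and 1 with the 6 libraries. Fewer libraries entered the batch of replicates 1 and 2 and the fits of the 6 libraries. The cause of the changed counts was not tested for any setting.

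With 1 library left out, the 10 genes gave 1 to 1 calls for cold on NCD, 3 to 6 for cold on HFD, 0 to 1 for HFD at 22 °C, 1 to 5 for HFD at 4 °C and 0 to 0 in the interaction and the 4-group test. The partner genes gave 2 to 3, 4 to 12, 0 to 1, 0 to 8 and 0 to 0 (interaction). Over all genes tested in these fits, 2.83% to 6.51% were called for cold on NCD and 5.85% to 9.61% for cold on HFD. For HFD the shares were 0.674% to 2.12% at 22 °C and 1.38% to 5.72% at 4 °C, and for the interaction 0% to 0.127%. The highest counts for cold on HFD and HFD at 4 °C came without replicate 2 of HFD at 4 °C, which added Bckdha (-0.68) to the first, Bcat2 (-0.54) and Acadsb (-0.57) to the second, Acad8, Hibadh and Pccb to both, Hsd17b10 to the first and Acat1 to the second.

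Changes near 0 that turned direction were not called in either setting. In the batch of replicates 1 and 2 these were 0.70 for Slc7a5 with cold on NCD (0.00 by DESeq2), and 0.12 for Bckdhb and 0.15 for Dbt with HFD at 4 °C. With 1 library left out the ranges for cold on NCD were -0.108 to 0.066 for Bckdha, -0.09 to 0.087 for Mccc2, -0.139 to 0.058 for Slc25a44 and -0.41 to 0.51 for Slc7a5. For cold on HFD they were -0.065 to 0.397 for Bcat1 and -0.28 to 0.004 for Slc25a44. For HFD at 4 °C they were -0.204 to 0.085 for Bckdhb and -0.193 to 0.091 for Dbt, and the interaction of Acadsb ran from -0.25 to 0.01.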
